A study of Homo sapiens with 29 samples.

Results

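The genes described here make, break down and control the polyamines: ODC1, AMD1, SRM, SMS, SAT1, OAZ1, OAZ2 and AZIN1. They were taken by symbol, and every probe set annotated to 1 of these symbols was read. That gave 8 of the 12165 genes measured and 17 of the 22277 probe sets on the array, a probe set being a group of short oligonucleotides that together read 1 transcript. The probe set with the highest mean stood for a gene, and its other probe sets are given beside it.

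The samples were DHL4 and DHL6, established lines of human diffuse large B-cell lymphoma, a tumour of mature B cells. R406 blocks SYK, the tyrosine kinase downstream of the B-cell receptor, and cells stood in 1 µM R406 for 2, 6, 24 or 48 h or in its solvent DMSO. Each of these 10 groups has 3 arrays, apart from DHL4 in DMSO with 2, so that 29 arrays entered. All groups shared a serum-containing RPMI medium with glutamine, and the labels name no engineered allele in either line. The labels give the DMSO arrays no time, and all times of a line were set against the same DMSO arrays, so that time in R406 and time in culture cannot be told apart. Nothing says whether arrays of a group were separate cultures, and the p-values therefore cover only how far arrays of a group lay apart, which can be technical variation. With bulk RNA, fewer cells making a transcript and less of it per cell cannot be told apart.

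Arrays of a group correlated at r between 0.978 and 0.996 over the genes, with 0 identical pairs. The DHL6 48 h group agreed least, its arrays having a mean r to their own group of 0.9787 to 0.9815. Array medians lay between 3.11 and 3.27 on the deposited log2 scale, the highest being that of DHL6 48 h replicate 1. Of 6 B-cell markers 4 were measured, and MS4A1, CD79A and CD79B had group means between 8.30 and 11.7, while PAX5 stayed between 2.59 and 3.03. The 3 germinal centre markers had group means between 5.403 and 10.7. All 5 T-cell markers (2.49 to 3.29) and the 3 of 4 monocyte and macrophage markers measured (2.52 to 3.23) had group means near the array medians. So did 4 of the 5 fibroblast and endothelial markers, the exception being PECAM1 with group means up to 7.64.

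Polyamines are small positively charged molecules that bind nucleic acids, and dividing cells need them. Ornithine decarboxylase (ODC1) turns ornithine into putrescine, spermidine synthase (SRM) and spermine synthase (SMS) extend it to spermidine and spermine, and S-adenosylmethionine decarboxylase (AMD1) supplies the aminopropyl groups for both steps. The acetyltransferase SAT1 starts the way back, the antizymes OAZ1 and OAZ2 bind ODC1 and send it to the proteasome, and the antizyme inhibitor AZIN1 takes antizyme away from ODC1. ODC1 and SRM are textbook targets of the transcription factor MYC, which binds the E-box CACGTG.

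Promoter windows from RefSeq (GRCh38.p14), running from 250 bases before to 50 bases after a start, were at hand for 7 of the 8 genes, 10 windows in all. Of the 3 AMD1 windows 2 lie 1 base apart and are nearly the same sequence. The palindrome CACGTG was searched in them, its second strand reading the same letters. It stood in 2 of the 10 windows, 1 of SRM and 1 of ODC1, against 7.26% of all 35116 promoter windows of that length. The parts of these windows before the start are shown with the E-box in capitals, beside that of SAT1, the gene whose transcript went the other way in DHL4. They are read 5′ to 3′ on the strand of the gene: the minus strand for SRM (chr1:11060019-11060268) and for the downstream of the 2 ODC1 starts (chr2:10448013-10448262), the plus strand for SAT1 (chrX:23782923-23783172).
SRM: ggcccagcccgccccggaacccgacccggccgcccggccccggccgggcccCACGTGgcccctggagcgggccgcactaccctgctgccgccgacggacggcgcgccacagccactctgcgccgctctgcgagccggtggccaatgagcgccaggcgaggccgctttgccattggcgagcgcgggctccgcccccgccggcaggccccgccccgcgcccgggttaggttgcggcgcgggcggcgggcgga
ODC1: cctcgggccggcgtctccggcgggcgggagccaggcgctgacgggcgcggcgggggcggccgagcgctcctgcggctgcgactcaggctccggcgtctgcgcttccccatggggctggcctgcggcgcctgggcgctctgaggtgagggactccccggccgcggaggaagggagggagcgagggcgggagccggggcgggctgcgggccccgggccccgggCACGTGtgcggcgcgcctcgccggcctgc
SAT1: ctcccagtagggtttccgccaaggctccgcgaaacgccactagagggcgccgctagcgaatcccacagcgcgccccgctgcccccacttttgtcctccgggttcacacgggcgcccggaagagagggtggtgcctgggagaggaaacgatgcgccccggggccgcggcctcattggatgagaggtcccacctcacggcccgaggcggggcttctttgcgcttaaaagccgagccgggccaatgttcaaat
The E-box of SRM begins 199 bases before the start. In ODC1 it begins 29 bases before the downstream start, and a second copy begins at base 6 after it; the window of the upstream ODC1 start, 315 bases away, holds none. The windows of AMD1 and SMS, whose transcripts also fell in DHL4, hold no CACGTG either, nor do those of SAT1, OAZ1 and OAZ2. The SAT1 window was printed because of its response in these data, and a link between the motif and the changes was not tested. Of the other motifs searched on both strands, the cyclic AMP element TGACGTCA and the forkhead motif GTAAACA were in 0 of the 10 windows (1.85% and 3.42% of all windows). TGACGT, which is part of the first of these, was in 1 window, that of the upstream ODC1 start (7.98% of all), and TATAAA in 1, that of OAZ1 (11.53% of all). GGGCGG was in 9 of the 10 windows, those of 6 of the 7 genes (44.95% of all windows). A match says that the letters are there, and not that a factor binds.

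In DHL4 all 4 synthesis genes fell to a low at 24 h of R406 and had risen again by 48 h, whereas SAT1 rose at 24 h and had fallen again by 48 h. In DHL6 ODC1, AMD1 and SMS were called lower at 48 h, SRM was called at no time in the fit of all arrays, and SAT1 fell from 6 h on. Changes are log2 differences between R406 and DMSO of the same line ± standard error (SE) from a linear model of all 29 arrays (limma), and a gene was called at a Benjamini-Hochberg adjusted p below 0.05 over all 12165 genes.

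In DHL4, 2 of the 8 genes were called at 2 h, both lower, where 9.48% of all genes were called. At 6 h 3 were called, all lower (12.8% of all genes), and at 24 h 6 were, 5 lower and 1 higher (29.5% of all genes). The median change of the 8 at 24 h was -1.33, and that of all genes 0.03. At 48 h limma called 0 of the 8 against 7.33% of all genes, although 3 had an unadjusted p below 0.05. With array weights in the fit AMD1, SMS and ODC1 were called lower at 48 h (adjusted p = 0.00977, 0.0189 and 0.0387).

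In DHL6 the count was 1 of 8 at 2 h, lower (5.29% of all genes), and 3 at 6 h, 2 lower and 1 higher (8.26% of all genes). It was 3 at 24 h (14.4% of all genes) and 4 at 48 h (23.3% of all genes), all lower. The median change of the 8 was -0.39 at 24 h and -0.58 at 48 h, and that of all genes 0.02 and 0.04. Over the 8 comparisons, 22 of 64 pairs of gene and comparison were called, 20 lower and 2 higher. The share of all genes called ran from 5.29% to 29.5% over these comparisons. Among all genes, lower calls also outnumbered higher ones in every comparison but DHL4 at 6 h (774 lower, 781 higher). They did so by 2008 to 1585 in DHL4 at 24 h and by 1810 to 1021 in DHL6 at 48 h. This skew depended on the scaling. With quantile normalization the higher share of calls went from 28.2% to 45.8% in DHL4 at 2 h and from 44.1% to 48.3% at 24 h. It went from 48.2% to 52% in DHL4 at 48 h and from 36.1% to 47.8% in DHL6 at 48 h. With each array centred on its median the last was 20.9%.

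**Figure D1:**
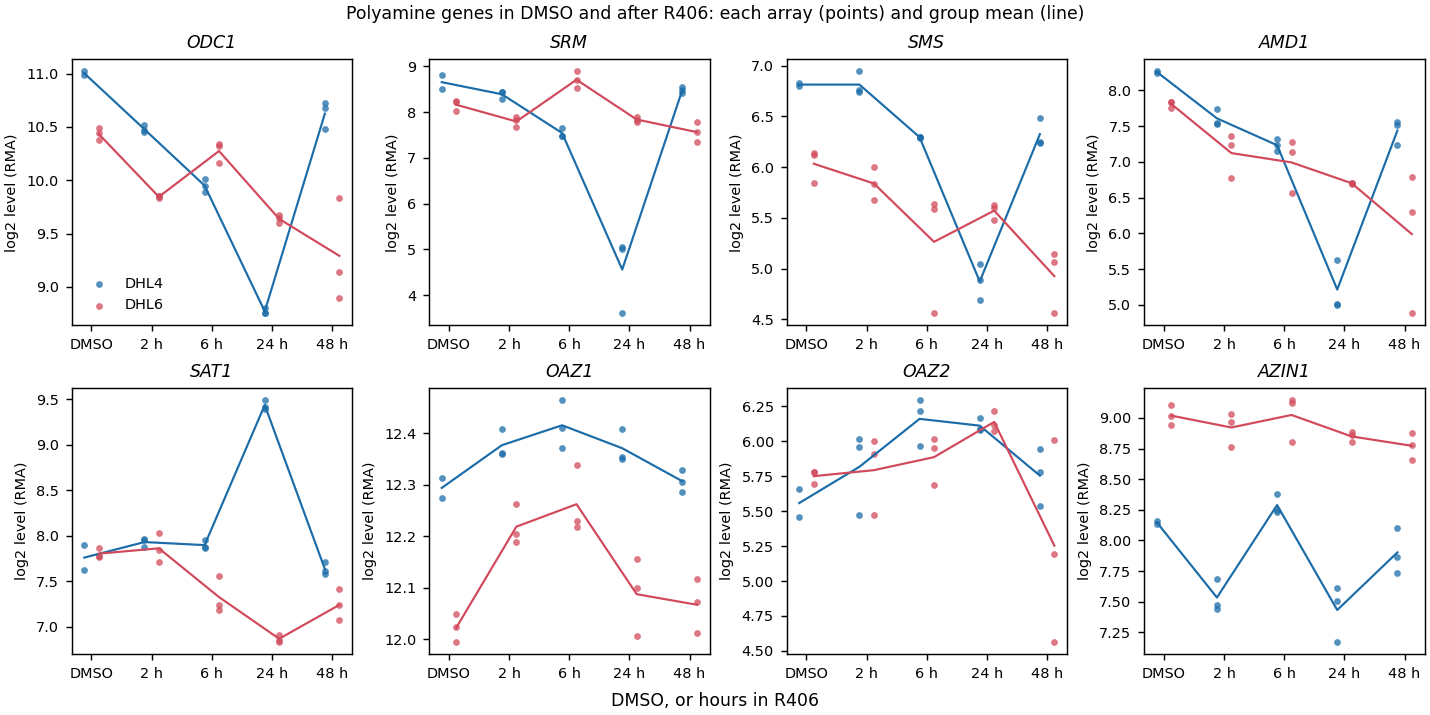
Log2 level of the 8 polyamine genes on each array (points; 2 arrays for DHL4 DMSO, 3 for every other group) and the group mean (lines), in DMSO and after 2, 6, 24 and 48 h of R406, DHL4 in blue and DHL6 in red; each panel has its own log2 axis. ODC1, SRM, SMS and AMD1 dip at 24 h in DHL4 where SAT1 peaks at 9.40 to 9.49, while the DHL6 lines of SAT1 and ODC1 end below DMSO.

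ODC1 makes putrescine and is the step that limits the pathway. In DHL4 it read 11.02 and 10.98 in DMSO, then 10.47, 10.52 and 10.45 at 2 h and 10.01, 9.89 and 9.95 at 6 h. It read 8.80, 8.76 and 8.75 at 24 h and 10.68, 10.72 and 10.48 at 48 h. Every R406 array lay below both DMSO arrays, and the 24 h arrays lay lowest of all. ODC1 fell by 0.52 ± 0.16 at 2 h (adjusted p = 0.0319), by 1.05 ± 0.16 at 6 h (2.07e-05) and by 2.23 ± 0.16 at 24 h (1.95e-11), the last a 4.69-fold lower level. The 48 h value of -0.38 ± 0.16 was not called (adjusted p = 0.177). The call at 2 h was lost without either DHL4 DMSO array (adjusted p = 0.202 and 0.131) and without 2 h replicate 1 or 3 (0.0635 and 0.0858), and with the compared groups alone in the model (0.0658).

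The DHL6 arrays of ODC1 stood at 10.44, 10.49 and 10.38 in DMSO, at 9.85, 9.85 and 9.83 at 2 h and at 10.34, 10.32 and 10.16 at 6 h. They stood at 9.60, 9.67 and 9.65 at 24 h and at 9.14, 9.84 and 8.90 at 48 h. The gene was thus low at 2 h, close to DMSO at 6 h, and low again. It fell by 0.59 ± 0.14 at 2 h (adjusted p = 0.00925), by 0.80 ± 0.14 at 24 h (0.000181) and by 1.14 ± 0.14 at 48 h (1.25e-06). At 6 h its difference was -0.16 ± 0.14 (adjusted p = 0.633).

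AMD1 makes the aminopropyl donor that SRM and SMS use. DHL4 arrays read 8.27 and 8.25 in DMSO, 7.75, 7.55 and 7.53 at 2 h, and 7.32, 7.15 and 7.23 at 6 h. They read 5.013, 5.623 and 5.0025 at 24 h and 7.52, 7.55 and 7.24 at 48 h. All R406 arrays were below the DMSO arrays. AMD1 fell by 1.03 ± 0.32 at 6 h (adjusted p = 0.0326) and by 3.05 ± 0.32 at 24 h (2.67e-08), which is 8.25-fold. The call at 6 h was lost when any 1 of the 5 arrays compared was left out (adjusted p = 0.0586 to 0.162). Values at 2 h (-0.65 ± 0.32, adjusted p = 0.244) and 48 h (-0.82 ± 0.32, 0.142) were not called. With the compared groups alone in the model both were called (0.0454 and 0.0078).

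AMD1 in DHL6 was at 7.76, 7.83 and 7.84 in DMSO, at 7.36, 6.77 and 7.23 at 2 h and at 7.14, 7.27 and 6.56 at 6 h. It was at 6.71, 6.70 and 6.69 at 24 h and at 4.88, 6.79 and 6.30 at 48 h, where 1 array lay far below the others. AMD1 fell by 1.11 ± 0.29 at 24 h (adjusted p = 0.008) and fell by 1.82 ± 0.29 at 48 h (3.62e-05). Without 48 h replicate 1 AMD1 was at -1.27 at 48 h, and without 48 h replicate 2 at -2.22, called both times. Its values of -0.69 ± 0.29 at 2 h and -0.82 ± 0.29 at 6 h were not called (adjusted p = 0.237 and 0.0846).

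The second AMD1 probe set, 201197_at, was called lower in 7 of the 8 comparisons in the fit over all probe sets, the exception being DHL4 at 48 h (-0.38 ± 0.15, adjusted p = 0.168). Its fall in DHL4 was 0.77 at 2 h, 0.79 at 6 h, and at 24 h it fell by 2.01 ± 0.15 (adjusted p = 7.97e-11). In DHL6 it fell by 0.48 at 2 h, 0.44 at 6 h, 0.76 at 24 h and 0.76 ± 0.13 at 48 h (0.000171). Both AMD1 probe sets were thus lower at 24 h in both lines, and their 48 h values in DHL6 differed in size.

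SRM, which makes spermidine, had the widest range of the 8 genes over the group means, 4.15 log2 units. DHL4 arrays read 8.51 and 8.81 in DMSO, 8.45, 8.28 and 8.45 at 2 h, and 7.49, 7.49 and 7.66 at 6 h. They read 3.60, 5.02 and 5.06 at 24 h and 8.42, 8.54 and 8.50 at 48 h. The 24 h arrays lay far below all others of either line, and the 48 h arrays overlapped DMSO. SRM fell by 1.11 ± 0.25 at 6 h (adjusted p = 0.00284) and fell by 4.10 ± 0.25 at 24 h (2.16e-12), a 17.1-fold lower level. Without 24 h replicate 1, whose 3.60 is near the median of that array (3.23), SRM fell by 3.62. The call at 6 h was lost without DMSO replicate 2 (-0.96, adjusted p = 0.0734). At 2 h and 48 h the values were -0.26 ± 0.25 (adjusted p = 0.618) and -0.17 ± 0.25 (0.877).

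SRM in DHL6 was called at no time, with unadjusted p below 0.05 at 6 h and 48 h. Its arrays were at 8.22, 8.24 and 8.03 in DMSO, 7.89, 7.83 and 7.67 at 2 h, and 8.53, 8.70 and 8.90 at 6 h. They were at 7.79, 7.84 and 7.89 at 24 h and 7.56, 7.78 and 7.35 at 48 h. The 6 h arrays lay above DMSO and those of the other times below it. The differences were -0.37 ± 0.23 at 2 h (adjusted p = 0.556), 0.55 ± 0.23 at 6 h (0.164), -0.32 ± 0.23 at 24 h (0.444) and -0.60 ± 0.23 at 48 h (0.0573). With each array centred on its median the last was -0.70 with an adjusted p of 0.0273, and it was called in 4 of 9 alternative settings. With the compared groups alone in the model SRM was called in DHL6 at 6 h (0.0471), 24 h (0.0424) and 48 h (0.0297).

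SMS makes spermine from spermidine. Its DHL4 arrays read 6.80 and 6.83 in DMSO, 6.76, 6.95 and 6.74 at 2 h, and 6.29, 6.30 and 6.30 at 6 h. They read 5.04, 4.88 and 4.69 at 24 h and 6.49, 6.24 and 6.25 at 48 h. The 2 h arrays overlapped DMSO, and of the 4 times the 24 h value was called. SMS fell by 1.94 ± 0.22 at 24 h (adjusted p = 6.47e-08), or 3.84-fold, and its other values were 0.00 ± 0.22 at 2 h, -0.52 ± 0.22 at 6 h (0.139) and -0.49 ± 0.22 at 48 h (0.22).

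In DHL6 SMS stood at 6.14, 6.12 and 5.84 in DMSO, 6.00, 5.68 and 5.84 at 2 h, and 5.64, 5.58 and 4.57 at 6 h. It stood at 5.48, 5.60 and 5.63 at 24 h and 4.56, 5.15 and 5.07 at 48 h. All arrays from 6 h on lay below DMSO. SMS fell by 0.77 ± 0.19 at 6 h (adjusted p = 0.0103) and by 1.11 ± 0.19 at 48 h (0.000121), while -0.46 ± 0.19 at 24 h was not called (0.125). Without 6 h replicate 3, the low array, the 6 h value was -0.42 and no longer called (adjusted p = 0.102), and without DMSO replicate 1 it was -0.72 (0.0537). With the compared groups alone in the model the adjusted p was 0.19.

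**Figure D2:**
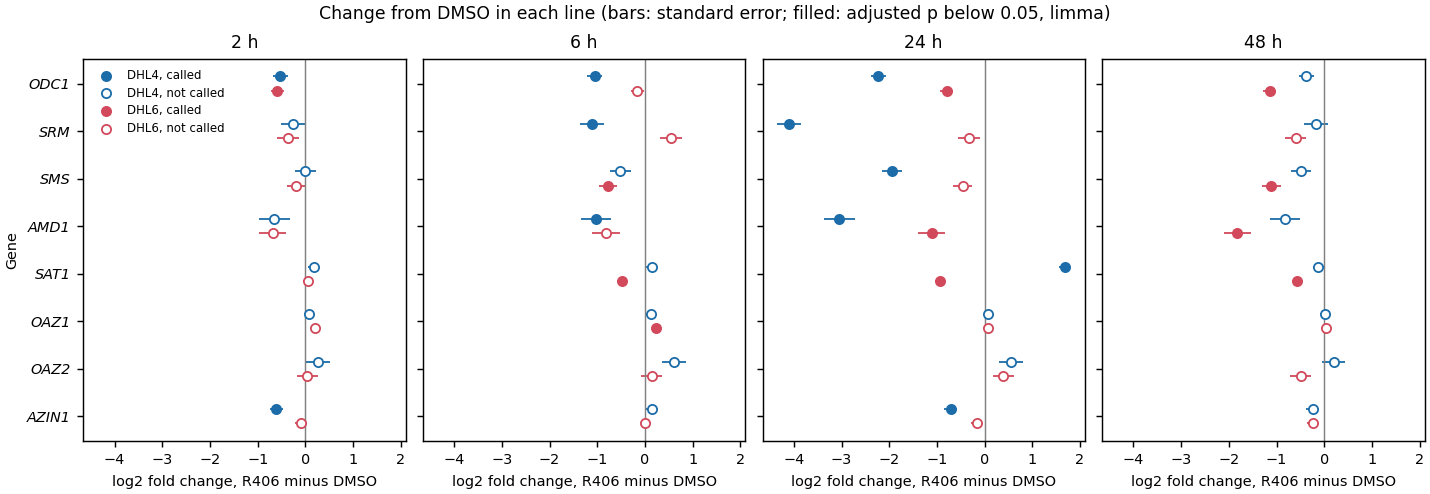
Log2 fold change of each gene at each time in DHL4 (blue) and DHL6 (red), R406 minus DMSO of the same line, with the standard error as bars; filled points have an adjusted p below 0.05 by limma. At 24 h DHL4 shows 5 filled points below 0 and SAT1 at 1.68, and at 48 h the 4 filled points belong to DHL6.

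SAT1 acetylates spermidine and spermine and so opens their breakdown and export. In DHL4 it read 7.90 and 7.63 in DMSO, 7.97, 7.95 and 7.88 at 2 h, and 7.87, 7.95 and 7.88 at 6 h. It read 9.49, 9.40 and 9.42 at 24 h and 7.58, 7.61 and 7.71 at 48 h. The 24 h arrays stood alone, and those of every other time overlapped DMSO. SAT1 rose by 1.68 ± 0.12 at 24 h (adjusted p = 2.63e-11), a 3.19-fold higher level, and its other 3 values lay between -0.13 and 0.17 with adjusted p of 0.459 to 0.729.

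SAT1 went down in DHL6. Arrays were at 7.78, 7.76 and 7.87 in DMSO, 7.84, 7.71 and 8.03 at 2 h, and 7.56, 7.24 and 7.18 at 6 h. They were at 6.83, 6.86 and 6.92 at 24 h and 7.08, 7.23 and 7.41 at 48 h. From 6 h on every array lay below DMSO. SAT1 fell by 0.48 ± 0.11 at 6 h (adjusted p = 0.00385), by 0.93 ± 0.11 at 24 h (4.69e-07) and by 0.56 ± 0.11 at 48 h (0.000316). The 6 h call was lost with the compared groups alone in the model (0.0719).

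The 4 SAT1 probe sets did not all show this fall. At 24 h 203455_s_at rose by 1.64 ± 0.22 in DHL4 (adjusted p = 1.54e-06) and fell by 1.12 ± 0.20 in DHL6 (0.000224). The probe set 213988_s_at rose by 1.23 ± 0.20 in DHL4 (2.87e-05) but was at 0.31 ± 0.18 in DHL6 (0.345). The fourth, 210593_at, averaged 2.95, near the array medians, and was called in neither line. With the mean of the 4 probe sets standing for the gene, the 24 h value in DHL6 was -0.43 (adjusted p = 0.00247), and the calls at 6 h (-0.25, 0.13) and 48 h (-0.22, 0.105) were lost. With quantile normalization the 48 h value in DHL6 was -0.36 (0.0105). The rise in DHL4 was thus seen by 3 of the 4 probe sets and the fall in DHL6 by 2 of them.

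**Figure D3:**
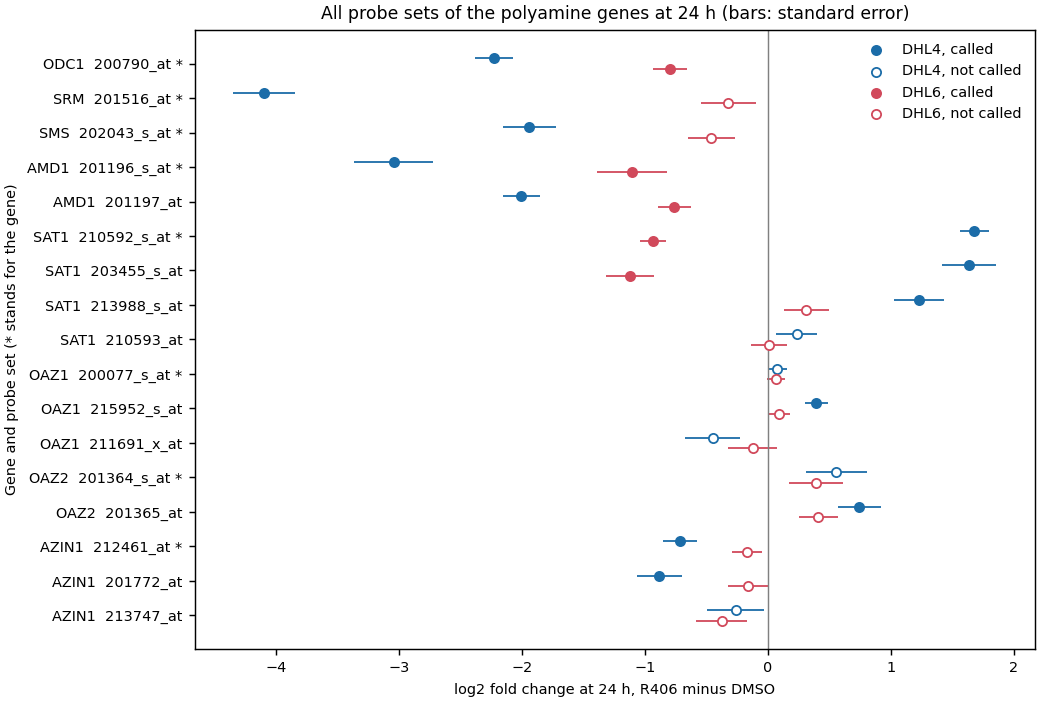
Log2 fold change at 24 h of all 17 probe sets of the 8 genes, R406 minus DMSO, with the standard error as bars, DHL4 in blue and DHL6 in red; filled points have an adjusted p below 0.05 in the fit over all probe sets, and a star marks the probe set that stands for its gene. In DHL4 3 SAT1 probe sets lie right of 1.2, and in DHL6 2 of them lie left of 0, with 213988_s_at at 0.31.

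OAZ1, the main antizyme, varied least of the 8 genes, its group means spanning 0.39. Its DHL4 arrays read 12.31 and 12.27 in DMSO and between 12.29 and 12.46 in R406, and no DHL4 comparison was called (values 0.01 to 0.12). In DHL6 it read 12.05, 11.99 and 12.02 in DMSO and 12.23, 12.22 and 12.34 at 6 h, without overlap. OAZ1 rose by 0.24 ± 0.07 at 6 h in DHL6 (adjusted p = 0.0406). With arrays centred the value was 0.20 (adjusted p = 0.101) and with quantile normalization 0.22 (0.0523), and the call was lost without any 1 of the 6 arrays (0.0542 to 0.184). Its second probe set, 215952_s_at, rose by 0.39 ± 0.09 at 24 h in DHL4 (0.00185) and by 0.35 ± 0.08 at 6 h in DHL6 (0.00701), and fell by 0.24 ± 0.08 at 48 h in DHL6 (0.0384). The third, 211691_x_at, averaged 3.28 and was called in neither line.

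OAZ2, a second antizyme, was not called against DMSO in either line. In DHL4 its arrays read 5.46 and 5.66 in DMSO, 6.30, 5.97 and 6.22 at 6 h, and 6.17, 6.09 and 6.08 at 24 h. These 6 arrays lay above both DMSO arrays, with differences of 0.60 ± 0.25 at 6 h (adjusted p = 0.135) and 0.55 ± 0.25 at 24 h (0.104). Its other probe set, 201365_at, was called at both times, having risen by 0.77 ± 0.17 (0.00328) and 0.74 ± 0.17 (0.00162). In DHL6 the differences ran from -0.50 to 0.39. The DHL6 24 h arrays (6.08, 6.22 and 6.12) lay above those of DMSO (5.78, 5.69 and 5.78). The difference there was 0.39 ± 0.22 (adjusted p = 0.314). With the compared groups alone in the model it was called (0.0141). The DHL4 values at 6 h and 24 h were then called too (0.0116 and 0.0101). In DHL6 the 48 h arrays were spread widely at 4.56, 6.01 and 5.19. The 48 h value of -0.50 ± 0.22 (adjusted p = 0.113) was -0.15 without 48 h replicate 1 (0.675) and -0.87, and called, without 48 h replicate 2 (0.000751).

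AZIN1, which shields ODC1 from the antizymes, was called lower in DHL4 at 2 h and 24 h. Its DHL4 arrays read 8.16 and 8.13 in DMSO, 7.47, 7.68 and 7.45 at 2 h, and 8.38, 8.24 and 8.25 at 6 h. They read 7.51, 7.62 and 7.17 at 24 h and 8.10, 7.87 and 7.74 at 48 h. The level was low at 2 h, slightly above DMSO at 6 h and low again at 24 h. AZIN1 fell by 0.61 ± 0.14 at 2 h (adjusted p = 0.00325) and by 0.72 ± 0.14 at 24 h (0.000139). With the compared groups alone in the model the 2 h call was lost (0.0564). Its other probe sets split these times: 213747_at fell by 1.05 ± 0.23 at 2 h (0.00383) and was at -0.26 ± 0.23 at 24 h (0.512), while 201772_at was at -0.48 ± 0.18 at 2 h (0.122) and fell by 0.88 ± 0.18 at 24 h (0.000483). In DHL6 AZIN1 ran from 8.66 to 9.15 over all arrays, with no value called (-0.25 to 0.01), although 201772_at fell by 0.61 ± 0.16 at 48 h (0.0091).

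The responses of the lines were compared directly as the change in DHL6 minus the change in DHL4. At 2 h limma called 0 of the 8 genes (1.76% of all genes), with 1 unadjusted p below 0.05, that of AZIN1. At 6 h 3 were called (7.04% of all genes), at 24 h 6 (16.4% of all genes) and at 48 h 1 (5.08% of all genes).

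At 6 h ODC1 (0.89 ± 0.21, adjusted p = 0.00725) and SRM (1.66 ± 0.34, 0.00205) were lower in DHL4 relative to DMSO than in DHL6, and SAT1 differed by -0.61 ± 0.16 (0.0165). This SAT1 call was lost without DHL4 DMSO replicate 2 (-0.48, 0.181), without DHL6 6 h replicate 3 (-0.54, 0.0501) and with the mean of its probe sets (-0.33, 0.228). At 24 h the differences were 3.77 ± 0.34 for SRM (1.1e-08), 1.94 ± 0.43 for AMD1 (0.00187), 1.48 ± 0.29 for SMS (0.000512) and 1.44 ± 0.21 for ODC1 (1.44e-05). All 4 synthesis genes had thus fallen further in DHL4 by then. SAT1, which had risen in 1 line and fallen in the other, differed by -2.61 ± 0.16 (1.62e-11). AZIN1 differed by 0.55 ± 0.18 (0.0389), a call lost without 8 of the 11 arrays, each left out in turn (0.0522 to 0.131). The SAT1 difference at 24 h was -1.63 with the mean of its probe sets (1.22e-08). At 48 h the sign for ODC1 had turned, -0.76 ± 0.21 (0.0323), being lower in DHL6, and this call was lost without 8 of the 11 arrays compared, each left out in turn (0.0668 to 0.147), and with the compared groups alone in the model (0.186). The other 7 genes at 48 h were not called, the nearest to it being SAT1 (-0.44 ± 0.16, 0.125).

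In DMSO, 4 of the 8 genes were called between DHL6 and DHL4 (20.6% of all genes were called). ODC1 was lower in DHL6 by -0.57 ± 0.16 (adjusted p = 0.00887), SMS by -0.78 ± 0.22 (0.00924) and OAZ1 by -0.27 ± 0.08 (0.0169). AZIN1 was higher in DHL6 by 0.87 ± 0.14 (2e-05), and its other probe sets by 1.04 ± 0.18 (0.00013) and 0.96 ± 0.23 (0.00368). SRM (-0.49, 0.211), AMD1 (-0.45, 0.442), OAZ2 (0.19, 0.755) and SAT1 (0.04, 0.912) were not called. Without either of the 2 DHL4 DMSO arrays, AZIN1 alone of the 8 was still called.

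Steps between successive R406 times use no DMSO array. In DHL4, 3 of the 8 genes were called from 2 to 6 h (11.7% of all genes): ODC1 fell by 0.53 ± 0.14 (adjusted p = 0.0132) and SRM by 0.85 ± 0.23 (0.014), and AZIN1 rose by 0.75 ± 0.12 (0.000138). The ODC1 call was lost without 6 h replicate 2 (0.0527), and that of SRM without 2 h replicate 3 or 6 h replicate 1 or 2 (0.0505 to 0.0582). From 6 to 24 h 6 were called (22.3% of all genes), with SRM down by 2.98 ± 0.23, AMD1 by 2.02 ± 0.29, SMS by 1.42 ± 0.19, ODC1 by 1.18 ± 0.14 and AZIN1 by 0.86 ± 0.12, and SAT1 up by 1.54 ± 0.11.

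From 24 to 48 h the same 6 genes were called in DHL4, each in the opposite direction (25.1% of all genes). SRM rose by 3.93 ± 0.23 (9.46e-13), AMD1 by 2.22 ± 0.29 (8.97e-07), ODC1 by 1.85 ± 0.14 (1.08e-10), SMS by 1.45 ± 0.19 (1.4e-06) and AZIN1 by 0.47 ± 0.12 (0.0041). SAT1 fell by 1.80 ± 0.11 (1.47e-12). Without 24 h replicate 3 the AZIN1 value was 0.34 (0.0509). The 24 h arrays enter both steps, so that these rises and the falls before them are not independent.

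In DHL6 no synthesis gene was called higher from 24 to 48 h. From 2 to 6 h 2 genes were called (4.46% of all genes), SRM up by 0.91 ± 0.23 (0.0171) and SAT1 down by 0.54 ± 0.11 (0.00301). From 6 to 24 h 3 were called (5.83% of all genes): SRM fell by 0.87 ± 0.23 (0.0203), ODC1 by 0.64 ± 0.14 (0.00598) and SAT1 by 0.46 ± 0.11 (0.00969). From 24 to 48 h 3 were called (6.72% of all genes): SMS fell by 0.65 ± 0.19 (0.0427), OAZ2 fell by 0.89 ± 0.22 (0.0154) and SAT1 rose by 0.37 ± 0.11 (0.0338). All of these DHL6 steps but that of ODC1 and the first of SAT1 lost their call without 1 or more single arrays; without 48 h replicate 1 the OAZ2 value was -0.54 (0.139). With the mean of the SAT1 probe sets its steps were, in turn, -0.34 (0.0461), -0.18 (0.38) and 0.21 (0.203). With the compared groups alone in the model the first SAT1 step was no longer called (0.174), nor were its later ones (0.141 and 0.267).

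MYC and SYK are given for reference, and their part in these changes was not tested. MYC fell in DHL4 by 1.31 ± 0.08 at 2 h, 1.33 ± 0.08 at 6 h and 1.34 ± 0.08 at 24 h, and was at 0.19 ± 0.08 at 48 h (adjusted p = 0.231). In DHL6 it rose by 0.96, 1.11, 1.00 and 0.74 ± 0.07 at the 4 times. MYC thus fell in DHL4 at the times when ODC1 was called lower and was not below DMSO at 48 h, and in DHL6 it was called higher at all 4 times, of which ODC1 was called lower at 3 and was near DMSO at 6 h. SRM was not called at 2 h in DHL4 (-0.26 ± 0.25, 0.618). From 6 to 24 h in DHL4 MYC changed by -0.01 ± 0.07 (0.951), while SRM fell by 2.98 and ODC1 by 1.18. In DHL6 SRM was called at no time in the fit of all arrays. The SYK transcript rose at 24 h by 1.93 ± 0.19 in DHL4 (1.06e-08) and by 2.61 ± 0.17 in DHL6 (6.51e-11), the latter being 1.61 with the mean of its probe sets.

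Of 31 further genes of polyamine supply, use, salvage and transport 25 were measured. In DHL4 the numbers called higher and lower were 1 and 1 at 2 h, 1 and 4 at 6 h, 2 and 11 at 24 h and 1 and 4 at 48 h. In DHL6 they were 1 and 2, 2 and 0, 2 and 7, and 2 and 10. The share of the list called in DHL4 was 8% at 2 h (9.48% of all genes), 20% at 6 h (12.8%), 52% at 24 h (29.5%) and 20% at 48 h (7.33%). In DHL6 it was 12% at 2 h (5.29% of all genes), 8% at 6 h (8.26%), 36% at 24 h (14.4%) and 48% at 48 h (23.3%). The shares at 2 h in DHL4 and at 6 h in DHL6 were thus near those of all genes. The median change of the list at 24 h was -0.41 in DHL4 and -0.07 in DHL6.

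Genes of S-adenosylmethionine, from which AMD1 makes its product, went both ways. MAT2A, the catalytic subunit of the synthetase, fell in 7 of the 8 comparisons. In DHL4 it fell by 1.28 ± 0.12, 1.33 ± 0.12, 2.13 ± 0.12 and 0.47 ± 0.12 at the 4 times, with arrays of 8.80 and 8.81 in DMSO and 6.85, 6.79 and 6.37 at 24 h. The DHL4 call at 48 h was lost without either DMSO array (0.0843 and 0.109) or 48 h replicate 1 (0.0593). Its falls in DHL6 were 0.56 ± 0.10 at 2 h, 0.57 ± 0.10 at 24 h and 0.73 ± 0.10 at 48 h. MAT2B, its regulatory subunit, was called higher in all 8 comparisons of the fit on every array, by 1.05 ± 0.10 at 24 h in DHL4 (5.78e-09) and by 0.44 ± 0.09 in DHL6 (0.00101). Of these calls 3 were lost when arrays were left out singly: DHL4 at 2 h without DMSO replicate 1 (0.0818), DHL4 at 48 h without either DMSO array or 48 h replicate 1 (0.08 to 0.131), and DHL6 at 6 h without DMSO replicate 2 or 6 h replicate 1 (0.0786 and 0.0536).

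AHCY, which clears S-adenosylhomocysteine, fell by 1.94 ± 0.12 at 24 h in DHL4 (2.31e-12) and was at -0.07 ± 0.11 in DHL6 (0.789). At 48 h it was called lower in both lines, at -0.41 in DHL4 and -0.31 in DHL6. Both 48 h calls were lost without single arrays (adjusted p up to 0.465 in DHL4 and 0.129 in DHL6). They were also lost with the compared groups alone in the model (0.125 in DHL4 and 0.0975 in DHL6). With quantile normalization the values were -0.34 in DHL4 (0.0601) and -0.13 in DHL6 (0.454). APIP and ENOPH1 recover methionine from the by-product of SRM and SMS. They fell by 1.36 ± 0.19 (1.97e-06) and 1.35 ± 0.20 (7.39e-06) at 24 h in DHL4, and by 0.54 ± 0.17 (0.0288) and 0.58 ± 0.18 (0.0331) in DHL6. These DHL6 calls were lost without single arrays (adjusted p up to 0.227 for APIP and 0.136 for ENOPH1).

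On the side of ornithine, SLC7A1, a carrier of arginine and ornithine, fell by 1.92 ± 0.11 at 24 h in DHL4 (3.86e-13) and by 0.50 ± 0.10 in DHL6 (0.000516), after a called 0.33 ± 0.10 at 6 h in DHL6 (0.0318). With the mean of its probe sets the 24 h values were -0.80 and -0.28, both still called, and the 6 h value was 0.19 (0.0889). OAT, the mitochondrial ornithine aminotransferase, fell by 1.21 ± 0.19 in DHL4 (1.68e-05) and 0.59 ± 0.17 in DHL6 (0.0214) at 24 h. EIF5A, the protein that carries hypusine made from spermidine, fell by 1.89 ± 0.18 in DHL4 (6.65e-09) and 1.02 ± 0.16 in DHL6 (5.93e-05); 1 of its 3 DHL6 DMSO arrays read 10.07 and the other two 9.10 and 9.18, and with the mean of its probe sets the DHL6 value was -0.50. ATP13A3, a polyamine transporter, fell by 1.31 ± 0.28 in DHL4 (0.000635) and 0.83 ± 0.25 in DHL6 (0.025) at 24 h. The DHL6 calls of OAT and ATP13A3 at 24 h were lost without single arrays (adjusted p up to 0.0859 and 0.207). SLC3A2, the heavy chain of several amino acid carriers, fell by 0.90 ± 0.23 at 6 h (0.00843) and 0.79 ± 0.23 at 24 h (0.0101) in DHL4 and by 0.71 ± 0.21 at 48 h in DHL6 (0.0135), and all 3 calls were lost without single arrays: those in DHL4 without either DMSO array (0.0602 to 0.0708), that in DHL6 without 48 h replicate 1 (-0.66, 0.053) or 3 (-0.62, 0.063). With quantile normalization the DHL6 value was -0.44 (0.0437). The oxidases SMOX and PAOX, which act in breakdown beside SAT1, averaged 3.09 and 3.11 over all arrays, near the array medians. Named after their values were seen, they were called in 0 of the 8 comparisons by limma, with values from -0.33 to 0.09.

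**Figure D4:**
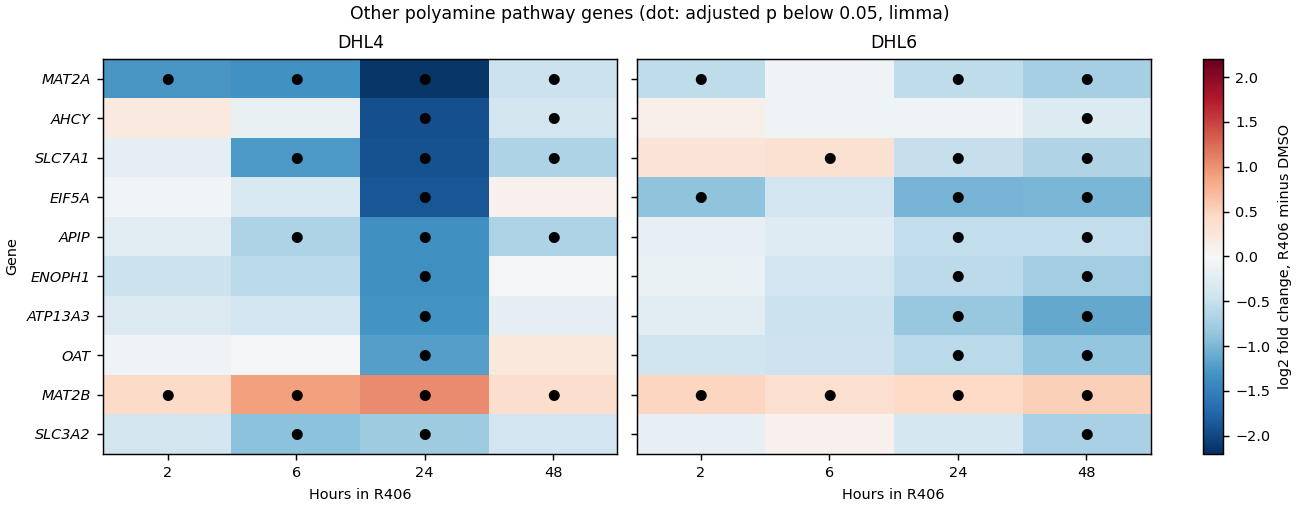
Log2 fold change (colour, R406 minus DMSO) of the 10 further pathway genes named by rule, at 2, 6, 24 and 48 h in DHL4 (left) and DHL6 (right); a dot marks an adjusted p below 0.05 by limma. The darkest column is DHL4 at 24 h, where MAT2A is at -2.13, and MAT2B carries a dot in all 8 columns.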

How the data were processed

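RNA was read on 29 Affymetrix human genome arrays. The authors deposited log2 expression values per probe set, summarised by RMA per the submitters' processing notes (version and set of arrays: not given in the sources). RMA corrects background and equalises the arrays' distributions, and it draws dim probe sets together, so that changes near the lower end of the scale (1.99 to 13.5 here) are understated. Array number limits the precision of every value.

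Of 22277 probe sets, 19724 had 1 symbol in the platform annotation (19707 updated through Entrez identifiers), 568 several, 1923 none and 62 were controls. The probe set of highest mean stood for each of 12165 genes, 4505 of which had more than 1. The limma package (3.58.1, under R 4.3.3) fitted 1 mean for each of the 10 groups (lmFit, eBayes; 19 residual and 5.05 prior degrees of freedom) and gave 19 contrasts, each adjusted by Benjamini-Hochberg over all genes and called below 0.05. The other probe sets come from the same model over all probe sets that are no control. The fit was tested on simulated data.

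The members and lists were chosen with earlier results of these data known, and no list was tested as a set. Named pathway genes were called the same way in at least 3 of the 8 R406 comparisons, at most 10 by size. Genes most like SRM, ODC1, AMD1 and SAT1 were the 3 with the highest Pearson r over the 10 group means less their line's mean, among 2924 genes with an SD of at least 0.3. Promoter sequences are from RefSeq, build GRCh38.p14; a chromosome rule left out some sequence, and gene coordinates were not used otherwise.

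Replicate numbers were ignored. Arrays of the same number in different groups had deviations from the group means that correlated at -0.44 to 0.35 (median 0.01). The correlation was above 0.1 in 18 of 126 pairs. Nothing in the labels says whether the numbers pair the samples. These values cannot exclude a pairing or a batch shared by some of the groups. Alternatives were another probe set rule, the fit over all probe sets, other scalings, a filter at a mean of 5, fewer groups, a replicate block, trended and weighted fits, and each array left out.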

Additional observations from a re-analysis of the deposited data

Results flagged for a closer look

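These results differed between the lines by a test of the difference itself, the response to R406 in DHL6 minus that in DHL4 (limma, adjusted over all genes). At 6 h ODC1 differed by 0.89, SRM by 1.66 and SAT1 by -0.61. At 24 h SRM differed by 3.77, AMD1 by 1.94, SMS by 1.48, ODC1 by 1.44, AZIN1 by 0.55 and SAT1 by -2.61. At 48 h ODC1 differed by -0.76, a call lost without 8 of 11 arrays, each left out in turn (adjusted p = 0.0668 to 0.147), and with the compared groups alone in the model (0.186). SRM at 24 h rested on 3 DHL4 arrays at 3.60, 5.02 and 5.06, and was 3.29 without the lowest. The AZIN1 difference was lost without 8 of 11 arrays, each left out in turn, and with the mean of its probe sets (0.39, adjusted p = 0.225). The SAT1 difference at 6 h was lost with the mean of its probe sets (-0.33, 0.228), without DHL4 DMSO replicate 2 (-0.48, 0.181) and without DHL6 6 h replicate 3 (-0.54, 0.0501).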

How the results depend on the processing

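Under 9 alternative settings the number of called pairs ran from 22 to 31 for the 64 responses, 8 to 11 for the 32 line differences, 3 to 5 for the 8 DMSO differences and 19 to 27 for the 48 time steps. With each array left out in turn the ranges were 19 to 28, 7 to 12, 1 to 5 and 19 to 26. The low of 1 in DMSO came without either DHL4 DMSO array. Called under every alternative, each array left out included, were 14 of the 22 responses, 7 of the 10 line differences, 1 of the 4 DMSO differences and 13 of the 23 steps. No value of a polyamine gene that was called turned its sign under any of them. With the compared groups alone in the model, 12 values of the 8 genes lost their call and 16 gained one. The replicate block gave 22, 10, 4 and 23 and changed no call of the 8 genes; AHCY at 48 h in DHL4 was no longer called under it (adjusted p = 0.0592). Counts over all genes moved more: when a fit held the compared groups alone, genes called went from 1153 to 510 in DHL4 at 2 h and from 2831 to 1727 in DHL6 at 48 h, and from 618 to 404 for the line difference at 48 h. Array weights raised them from 1555 to 2337 in DHL4 at 6 h and from 892 to 1611 at 48 h, and in DHL6 from 644 to 1155 at 2 h, from 1005 to 1648 at 6 h and from 1748 to 2755 at 24 h. They raised the line differences from 214 to 350 at 2 h, from 857 to 1450 at 6 h and from 618 to 1126 at 48 h, and moved the later DHL6 steps from 709 to 1166 and from 817 to 496. Without DHL4 DMSO replicate 1 or 2, DHL4 at 2 h had 568 or 697 called genes and at 48 h 492 or 416. The fit of the compared groups alone called 119, 218 and 31 genes for the DHL6 steps, against 542, 709 and 817. The cause was not tested. In the pathway list, the DHL4 count at 2 h (2) was 1 with the compared groups alone, that at 6 h (5) was 8 with them or with array weights and 3 without DMSO replicate 1, and that of DHL6 at 2 h (3) was 5 with array weights. The DHL6 count at 6 h (2) ranged from 0 with the compared groups only to 5 with array weights, that of DHL4 at 48 h (5) fell to 1 without DMSO replicate 2, and that of DHL6 at 24 h (9) to 5 without DMSO replicate 1 or 2 or 24 h replicate 2.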

Other observations

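Over the 10 group means, each less the mean of its line, the genes whose pattern was most like that of ODC1 were ABCE1 (Pearson r = 0.991), TMEM109 (0.989) and NCL (0.988). Those most like SRM were TRAP1 (0.988), GTF3A (0.984) and MRPL3 (0.983). Those most like AMD1 were USP14 (0.989), TMEM97 (0.989) and XRCC5 (0.986). SAT1 had looser neighbours, S100A10 (0.943), JUND (0.914) and FZD3 (0.913). The synthesis genes resembled one another in the same way, from 0.832 between SRM and SMS to 0.959 between ODC1 and AMD1, and SAT1 had negative values with all 4: -0.813 with SRM, -0.592 with ODC1, -0.559 with SMS and -0.552 with AMD1. These values describe 10 points that share arrays, normalization and the DHL4 low at 24 h, and carry no p. They were not computed within each line. In DHL6 SAT1 was called lower at 24 h and 48 h (-0.93 and -0.56), as were ODC1 (-0.80 and -1.14) and AMD1 (-1.11 and -1.82). The negative values of SAT1 therefore do not describe opposite changes in that line.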
